A study of Homo sapiens with 14 samples.

Results

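The miR-183, miR-96 and miR-182 cluster was examined through the 4 of its mature miRNAs that were picked by name, hsa-miR-183-5p, hsa-miR-183-3p, hsa-miR-96-5p and hsa-miR-182-5p, out of 2588 mature miRNAs in the count tables. Its members did not move together. hsa-miR-182-5p and hsa-miR-183-5p were enriched by immunoprecipitation with an antibody against N7-methylguanosine (m7G), a guanine that carries a methyl group, whereas hsa-miR-96-5p was depleted there and also in a chemical pulldown of m7G. Such calls were common: among all miRNAs tested, 27.3% were called enriched and 29.9% depleted in the immunoprecipitation. In the chemical pulldown these shares were 32.2% and 27.2%. Of the 3 members tested in both pulldowns, hsa-miR-183-5p was the only one called enriched in both. The share of all miRNAs with both calls was not counted. However, the calls of both hsa-miR-183-5p and hsa-miR-96-5p in the chemical pulldown were lost under several settings. That of hsa-miR-96-5p in the immunoprecipitation was lost in replicates 1 to 3 alone. With counts scaled by library totals, hsa-miR-182-5p was also called enriched in the chemical pulldown.

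The cluster is a set of 3 neighbouring microRNA genes that are transcribed together and cut from a shared precursor transcript. It is best known from the sensory hair cells of the inner ear, the retina and other sense organs, where its mature miRNAs are abundant, and it is often raised in epithelial tumours, lung cancers included. A mature miRNA guides the silencing complex to messenger RNAs mainly through its seed, the bases near its 5′ end. Each hairpin yields a 5p and a 3p arm, and the 5p arms are the dominant products of these genes.

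All libraries came from A549, an established human lung adenocarcinoma cell line, whose total RNA was decapped before the assays. In BoRed-seq, the RNA of the Red group (2 libraries) was reduced with NaBH4, which leaves a site without a base where m7G stood once the RNA is exposed to low pH, while that of the Ctrl group (2 libraries) received NaBH4 quenched with acid; both groups were then labelled with a biotin-coupled aldehyde reactive probe and pulled down on streptavidin beads. In m7G-RIP-seq, heat-denatured RNA bound by the m7G antibody (IP, 5 libraries) was compared with the starting RNA (Input, 5 libraries). The labels number the replicates but do not say whether they were separate cultures, so the p-values measure the spread between these libraries, which may be technical.

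The genes lie on the minus strand of chromosome 7 (GRCh38), and the mature sequences of the 6 arms span 4583 bases. MIR183 and MIR96 are close neighbours, with 166 bases between hsa-miR-183-3p and hsa-miR-96-5p, and MIR182 lies further downstream, 4226 bases beyond hsa-miR-96-3p. In the GENCODE annotation the whole span lies within ENSG00000286380, a long noncoding RNA gene of the same strand, and none of the 6 arms overlaps an exon of its 5 transcripts, so each lies in an intron or beyond the ends of a transcript. hsa-miR-183-5p is at chr7:129774967-129774988, hsa-miR-183-3p at chr7:129774928-129774949, hsa-miR-96-5p at chr7:129774739-129774761 and hsa-miR-182-5p at chr7:129770447-129770470. The mature sequences of the members (RefSeq, GRCh38.p14) are shown so that the members' results can be read beside their seeds and guanines. Capitals mark the seed, bases 2 to 8.
hsa-miR-183-5p: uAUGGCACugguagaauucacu
hsa-miR-182-5p: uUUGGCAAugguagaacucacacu
hsa-miR-96-5p: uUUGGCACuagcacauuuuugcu
hsa-miR-183-3p: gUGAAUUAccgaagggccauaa

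No pair of members has the same bases 2 to 8. hsa-miR-96-5p and hsa-miR-182-5p share bases 2 to 7, UUGGCA, and are therefore counted as relatives in target recognition. Aligned from their 5′ ends without gaps, they are identical at 12 of 23 positions. hsa-miR-183-5p differs from both in the seed but is identical to hsa-miR-182-5p at 18 of 22 positions, and to hsa-miR-96-5p at 13 of 22. The longest stretch that hsa-miR-183-5p and hsa-miR-182-5p share starts just after the seed and is in capitals here.
hsa-miR-183-5p: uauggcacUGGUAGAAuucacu
hsa-miR-182-5p: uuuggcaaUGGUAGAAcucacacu

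This stretch of 8 bases, at positions 9 to 16 in both, was found in 3 of 2370 mature sequences of the reference (0.127%). The third, hsa-miR-5186, had 0 counts in all 14 libraries. Guanines are the only bases that can carry m7G. hsa-miR-183-5p and hsa-miR-182-5p each have 5 G, with a GG starting at positions 4 and 10, whereas hsa-miR-96-5p has 4 G and its single GG starts at position 4. hsa-miR-183-3p has 6 G, 3 of them in a run that holds both of its GG steps, which start at positions 14 and 15. The assays count whole mature miRNAs and do not say which guanine, if any, was bound.

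Library depth set what could be seen. Totals over all mature miRNAs were 242085 and 277498 counts in Red against 5874405 and 4678102 in Ctrl, 2854811 to 6452759 in IP and 7097379 to 14874685 in Input. hsa-miR-21-5p, the most abundant miRNA of Ctrl, took 79.0% to 80.4% of the counts there and 26.7% to 26.9% in Red, 38.0% to 46.3% in Input and 4.64% to 6.27% in IP, so plain shares of a library move with it. In m7G-RIP-seq, a second principal component with 15.4% of the variance parted replicates 1 to 3 from replicates 4 and 5 in both groups. Of 6 epithelial miRNAs fixed as markers of the cell line, 0 were at 0 in any group. Their summed level was 193 to 228 CPM (counts scaled to a library total of 1e6) in Ctrl, 397 to 786 in Red, 343 to 1002 in Input and 174 to 216 in IP. The largest of them in each group mean was hsa-miR-200b-3p, with 507 CPM in Input. Others were scarce, such as hsa-miR-141-3p at 0.124 CPM and hsa-miR-205-5p at 0.904 CPM in Input. Of 10 markers of blood, endothelium, muscle, liver and neurons, 4 were at 0 in Ctrl, 3 in Red, 2 in Input and 3 in IP, the liver marker hsa-miR-122-5p in every group. Their summed level was 269 to 303 CPM in Ctrl, 161 to 360 in Red, 322 to 521 in Input and 315 to 1114 in IP, mostly the endothelial hsa-miR-126-3p in each group mean. The part of these differences in the results was not tested.

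Among the control libraries the order of the members was the same in both assays: hsa-miR-182-5p was highest, then hsa-miR-183-5p, then hsa-miR-96-5p, then hsa-miR-183-3p. In Input, hsa-miR-182-5p made up 3919 ± 307 CPM (SD, n = 5), rank 29 of all miRNAs, hsa-miR-183-5p 1950 ± 298, hsa-miR-96-5p 40.3 ± 14.8 and hsa-miR-183-3p 15.8 ± 13.5. The last 2 overlapped across libraries, while the others did not overlap with their neighbours. In bulk RNA such a level cannot tell the amount per cell from the share of cells that hold the miRNA. In Ctrl the 4 levels were 1951 ± 93.3, 713 ± 117, 188 ± 50.0 and 1.77 ± 0.386 CPM (SD, n = 2), with no overlap between neighbours. hsa-miR-96-5p therefore stood at 6.64% ± 2.13 of the cluster's counts in Ctrl (SD, n = 2) and at 0.679% ± 0.243 in Input (SD, n = 5), although both are A549 RNA; Ctrl had passed through the mock reaction and the streptavidin pulldown and Input had not, and this difference between the assays' controls was not tested.

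The order changed in IP at its lower end. hsa-miR-182-5p remained highest at 14080 ± 3491 CPM (SD, n = 5), rank 13, followed by hsa-miR-183-5p at 5365 ± 466. hsa-miR-183-3p then stood at 35.1 ± 16.1 CPM, above hsa-miR-96-5p at 20.5 ± 10.8, and the libraries of these last 2 overlapped. As a whole the cluster made up 0.593% ± 0.0285 of all counts in Input and 1.95% ± 0.340 in IP (SD, n = 5), and 0.285% ± 0.0160 in Ctrl and 0.676% ± 0.273 in Red (SD, n = 2). With hsa-miR-21-5p set aside, the cluster's share of the remaining counts was still higher in IP (1.61% to 2.47%) than in Input (0.938% to 1.06%), but in BoRed-seq it was lower in Red (0.660% to 1.19%) than in Ctrl (1.40% to 1.41%). The direction for the cluster's share in BoRed-seq thus depends on that single miRNA.

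**Figure D1:**
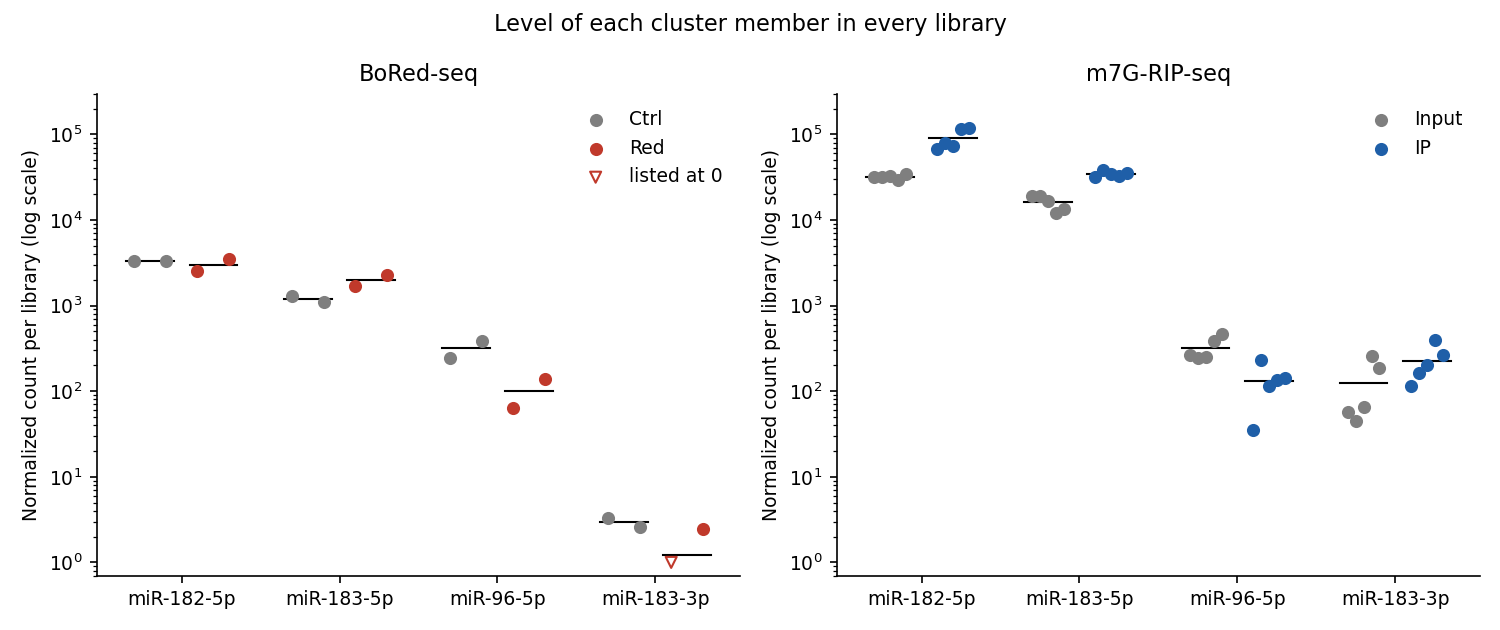
Normalized counts (counts divided by the library's size factor, log scale) of the 4 members in every library of BoRed-seq (left) and m7G-RIP-seq (right); each point is a library, the short line is the group mean, and the open triangle, drawn at 1, is the Red library in which hsa-miR-183-3p had 0 counts. All 5 IP libraries lie above all 5 Input libraries for hsa-miR-182-5p and hsa-miR-183-5p and below them for hsa-miR-96-5p.

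hsa-miR-182-5p, the most abundant member, represses mRNAs such as those of FOXO transcription factors. Its normalized counts, which are counts divided by a size factor that sets the typical miRNA equal between libraries, were 31602, 31363, 32639, 29605 and 34328 in Input replicates 1 to 5. In IP they were 67014, 79230, 73205, 116970 and 119400. Every IP library lay above every Input library, and IP replicates 4 and 5 stood above the other IP libraries. Its log2 enrichment, IP over Input, was 1.51 ± 0.21 (SE, n = 5 and 5), a 2.86-fold rise, with an adjusted p of 2.98e-12 (DESeq2 Wald test, Benjamini-Hochberg over all miRNAs tested).

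hsa-miR-183-5p, which targets EGR1 and other mRNAs, rose as well. It had 18916, 18877, 16837, 12031 and 13382 normalized counts in Input replicates 1 to 5 and 31468, 38347, 34857, 32239 and 35705 in IP. The groups did not overlap, and IP replicates were within a narrow range while Input replicates 4 and 5 were the lowest of their group. The log2 enrichment was 1.11 ± 0.18 (SE, n = 5 and 5), 2.16-fold, with an adjusted p of 2.27e-09 (DESeq2).

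hsa-miR-96-5p, the member whose seed mutations cause inherited hearing loss, went the other way. It had 262, 243, 253, 390 and 467 normalized counts in Input replicates 1 to 5 and 35.6, 234, 116, 136 and 142 in IP. The highest IP library, replicate 2, was just below the lowest Input library, and IP replicate 1, with 27 raw counts, was the lowest by far. The log2 enrichment was -1.28 ± 0.42 (SE, n = 5 and 5), 2.43-fold lower in IP, with an adjusted p of 0.00484 (DESeq2). From replicates 1 to 3 alone it was -1.002 ± 0.51 with an adjusted p of 0.0863.

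hsa-miR-183-3p, the minor arm of the hairpin that gives hsa-miR-183-5p, had 56.5, 45.1, 65.1, 260 and 189 normalized counts in Input replicates 1 to 5. In IP it had 113, 165, 202, 391 and 264. The groups overlapped, since Input replicates 4 and 5 were as high as several IP libraries, but within each replicate number IP was higher. The log2 enrichment of 0.88 ± 0.53 (SE, n = 5 and 5) had an adjusted p of 0.141 (DESeq2). With the replicate number as a block, so that each IP library was read against its own Input, it was 1.10 ± 0.31 with an adjusted p of 0.000721; Input and IP libraries of different numbers within replicates 1 to 3, or within 4 and 5, deviated together about as much as those of the same number, so pairs and these sets of replicates cannot be told apart in the block. Without Input replicate 4 it was 1.36 with an adjusted p of 0.0160, so this library decided the call without the block.

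Thus, without the block, 2 of the 4 members were called enriched in m7G-RIP-seq and 1 depleted, against 27.3% of the 670 miRNAs tested that were called enriched and 29.9% that were called depleted. With the replicate number as a block, hsa-miR-183-3p was called enriched as well. IP and Input were fully separated for 3 of the 4 members and for 42.4% of all miRNAs fitted. Among the 670 log2 enrichments, whose median was 0.02, that of hsa-miR-182-5p was above 81.5%, that of hsa-miR-183-5p above 73.6%, that of hsa-miR-183-3p above 68.4% and that of hsa-miR-96-5p above 26.6%. None of the members was near either end of the distribution.

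In BoRed-seq the pattern was partly different. hsa-miR-183-5p had 1293 and 1096 normalized counts in Ctrl replicates 1 and 2 and 1707 and 2305 in Red. Both Red libraries were above both Ctrl libraries. The log2 enrichment, Red over Ctrl, was 0.75 ± 0.30 (SE, n = 2 and 2), 1.68-fold, with an adjusted p of 0.0226 (DESeq2). The call was lost with totals without hsa-miR-21-5p as size factors, where the log2 enrichment was 0.048 (adjusted p = 0.922), without Ctrl replicate 1 (adjusted p = 0.107), without Ctrl replicate 2 (0.175) and without Red replicate 2, where the log2 enrichment was 0.44 (0.409).

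hsa-miR-182-5p had 3279 normalized counts in each Ctrl library and 2555 and 3453 in Red replicates 1 and 2, so the Red libraries lay on either side of Ctrl. Its log2 enrichment was -0.12 ± 0.29 (SE, n = 2 and 2) with an adjusted p of 0.725 (DESeq2). Its sign was not stable: it was 0.22 without Red replicate 1 and 0.21 with the Ctrl counts thinned to the Red depth, neither of them called. Thinning lifted the median of the 258 miRNAs then fitted by 1.09, to 0.77, so hsa-miR-182-5p lay below that median. With library totals as size factors, which lifted the median of all miRNAs by 1.08, its log2 enrichment was 1.02 with an adjusted p of 0.0116. Relative to the median of all miRNAs under that scaling, it was 0.26 higher.

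hsa-miR-96-5p had 247 and 388 normalized counts in Ctrl replicates 1 and 2 and 63.0 and 139 in Red. Both Red libraries, which held 17 and 57 raw counts, were below both Ctrl libraries. The log2 enrichment was -1.62 ± 0.46 (SE, n = 2 and 2), 3.08-fold lower in Red, with an adjusted p of 0.00109 (DESeq2). The call was lost without Ctrl replicate 2 (log2 enrichment -1.31), without Red replicate 1 (-1.04) and with library totals as size factors, where the value was -0.44 and lay 1.20 below the median of all miRNAs.

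hsa-miR-183-3p had 12 and 7 raw counts in Ctrl replicates 1 and 2 and 0 and 1 in Red. It failed the minimum of 10 counts in 2 libraries and was not tested. A count of 0 among the 242085 counts of Red replicate 1 allows a share of up to 0.00124% (3 counts, counting error only), which is above its shares in Ctrl, 0.000204% (95% Wilson interval 0.000117% to 0.000357%) and 0.000150% (0.0000725% to 0.000309%). A fall was therefore not detectable at this depth, nor was a rise that stayed under this limit.

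Of the 3 members tested in BoRed-seq, 1 was called enriched and 1 depleted, against 32.2% of 400 miRNAs called enriched and 27.2% called depleted. Red and Ctrl were fully separated for 2 of the 3 and for 81.5% of the 453 miRNAs fitted, so with 2 libraries per group a lack of overlap was the common case. Against a median log2 enrichment of -0.32, hsa-miR-183-5p stood above 65.8% of the 453 miRNAs, hsa-miR-182-5p above 53.2% and hsa-miR-96-5p above 32.2%. By these estimates the order of hsa-miR-182-5p and hsa-miR-183-5p was the reverse of that in m7G-RIP-seq. The change in their ratio, given below, was called in neither assay.

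**Figure D2:**
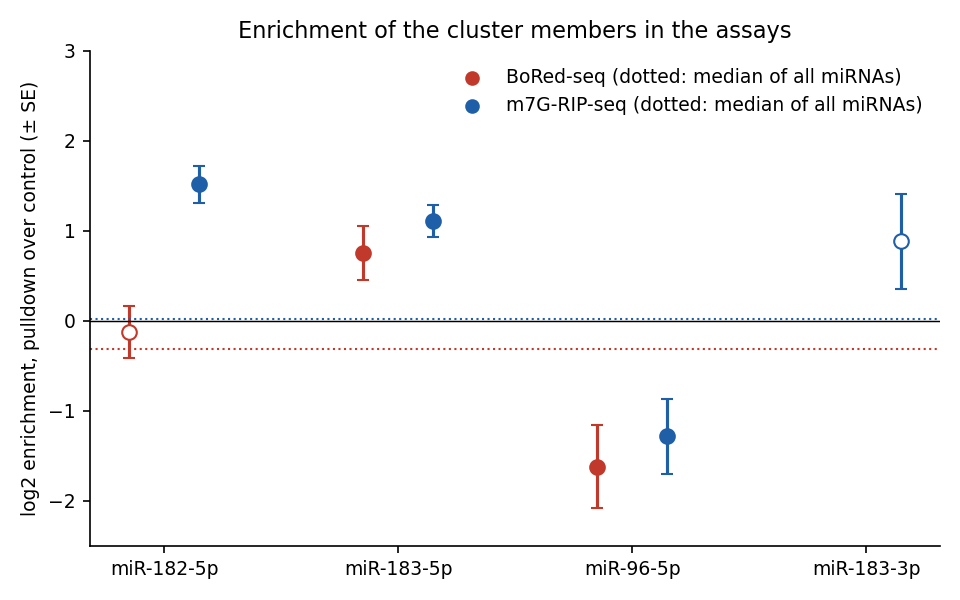
Log2 enrichment of each member, Red over Ctrl (red) and IP over Input (blue), with bars for the standard error; filled points have an adjusted p under 0.05, open points do not, and dotted lines are the medians of all miRNAs fitted. hsa-miR-96-5p lies below 0 in both assays, hsa-miR-183-5p above 0 in both, and hsa-miR-182-5p at -0.12 for Red over Ctrl and 1.51 for IP over Input; hsa-miR-183-3p has no BoRed-seq point.

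The enrichments in the assays, which share no library, were then compared. For hsa-miR-182-5p the m7G-RIP-seq value was higher by 1.64 ± 0.35 (SE) on the log2 scale, with an adjusted p of 2.82e-05 (two-sided z test on the DESeq2 standard errors, adjusted over 384 miRNAs). Such a difference was called for 38.0% of those miRNAs. It was 0.82 with an adjusted p of 0.0948 where library totals were the size factors in both assays. For hsa-miR-183-5p the difference was 0.36 ± 0.35 (adjusted p = 0.432 by the same z test on DESeq2 values) and for hsa-miR-96-5p 0.34 ± 0.62 (adjusted p = 0.715). The 95% intervals of these differences, -0.32 to 1.04 and -0.89 to 1.56, include 0 and are wide, so the data do not show that the assays gave the same value.

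Ratios between members inside a library need no size factor and so compare the members without the scaling. The 2 members that share the seed bases UUGGCA parted most in IP. In Input replicates 1 to 5 there were 120, 129, 129, 75.9 and 73.4 counts of hsa-miR-182-5p for each count of hsa-miR-96-5p. In IP there were 1848, 338, 626, 858 and 836. Every IP library was above every Input library, and the mean log2 ratio went from 6.67 ± 0.42 to 9.60 ± 0.89 (SD, n = 5 each), a 7.59-fold change (two-sided exact permutation test p = 0.00794, the smallest these groups allow, Benjamini-Hochberg adjusted over 4 ratios 0.0159). The normalized counts of hsa-miR-182-5p were already higher in every IP library and those of hsa-miR-96-5p lower. The separation and this p-value were thereby fixed, so the test is no further support, and the ratio adds the size of the change.

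The ratio of hsa-miR-183-5p to hsa-miR-96-5p changed alike. It was 28.6 to 77.5 in Input and 164 to 868 in IP, with no overlap. The mean log2 ratio went from 5.66 ± 0.70 to 8.24 ± 0.91 (SD, n = 5 each), a 5.98-fold change (exact permutation p = 0.00794, adjusted 0.0159). Here too the members' normalized counts had already fixed the separation, this p-value and the direction within each pair. For both ratios the IP library was above the Input library of its own number in 5 of 5 pairs; the exact sign-flip test over these pairs gave p = 0.0625, the smallest that 5 pairs allow, so under the pairing neither ratio could pass the threshold.

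In BoRed-seq the same ratios moved in the same direction. There were 13.2 and 8.45 counts of hsa-miR-182-5p for each of hsa-miR-96-5p in Ctrl replicates 1 and 2 and 39.5 and 24.6 in Red, 2.94-fold more. For hsa-miR-183-5p against hsa-miR-96-5p the ratios were 5.22 and 2.83 in Ctrl and 26.4 and 16.4 in Red, 5.41-fold more. Both Red libraries were above both Ctrl libraries in each case, and the differences in mean log2 ratio, 1.56 and 2.44, exceeded the pooled SDs of 0.47 and 0.56 (n = 2 each). For hsa-miR-183-5p over hsa-miR-96-5p this separation followed from the normalized counts, where the members had parted in opposite directions. An exact permutation test of 2 against 2 libraries cannot go below p = 0.333, the value found for all 3 ratios.

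The ratio between the abundant members went different ways. In BoRed-seq there were 2.54 and 2.99 counts of hsa-miR-182-5p for each of hsa-miR-183-5p in Ctrl replicates 1 and 2 and 1.496 and 1.498 in Red, a change of -0.88 on the log2 scale against a pooled SD of 0.12 (n = 2 each). In m7G-RIP-seq there were 1.67, 1.66, 1.94, 2.46 and 2.57 in Input replicates 1 to 5 and 2.13, 2.07, 2.10, 3.63 and 3.34 in IP. The groups overlapped, and the change of 0.34 on the log2 scale had an exact permutation p of 0.151 (adjusted 0.201, pooled SD 0.35, n = 5 each). Within the replicate numbers IP was higher in 5 of 5 pairs, by 0.12 to 0.56 (exact sign-flip p = 0.0625).

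The ratio between the arms of the MIR183 hairpin overlapped between the groups of m7G-RIP-seq. Input replicates 1 to 5 had 331, 416, 257, 46.2 and 70.8 counts of hsa-miR-183-5p for each of hsa-miR-183-3p, and IP had 276, 232, 171, 82.3 and 135. Replicates 4 and 5 were the lowest of each group, and the groups overlapped. The mean log2 ratio was 7.35 ± 1.42 in Input and 7.36 ± 0.69 in IP (SD, n = 5 each), a difference of 0.01 (exact permutation p = 0.992, adjusted 0.992).

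**Figure D3:**
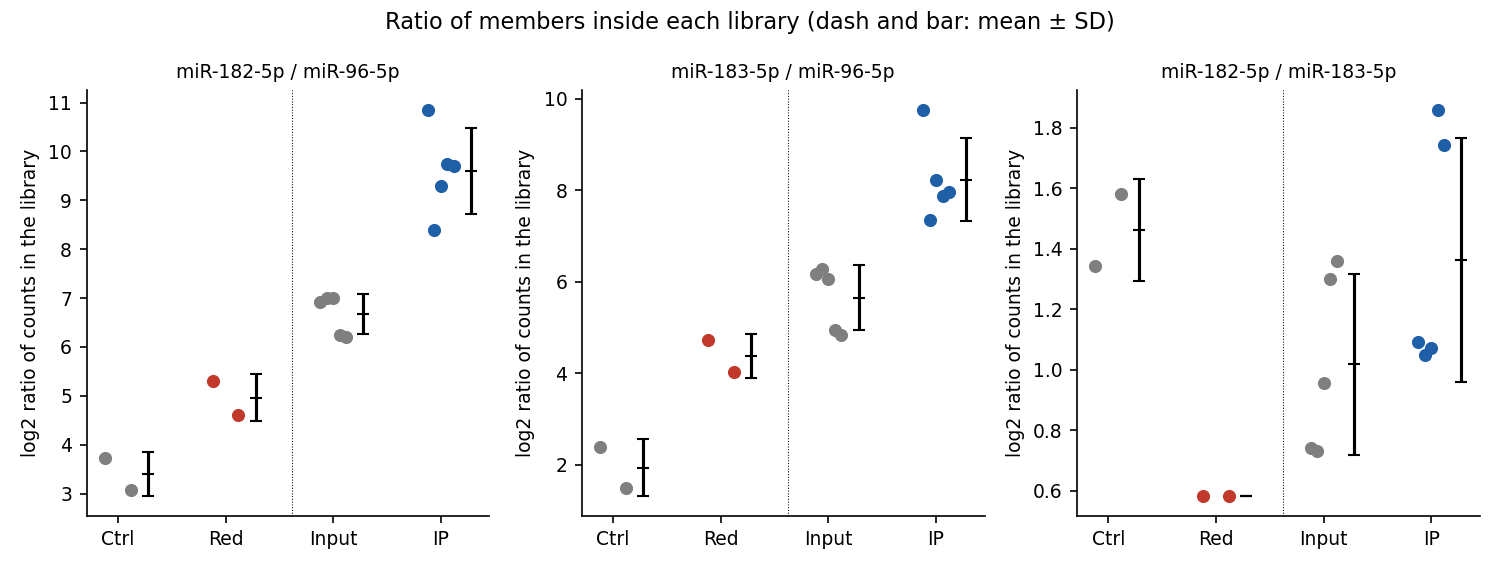
Log2 ratio of raw counts (0.5 added to each) between pairs of members inside each library, with Ctrl and Red of BoRed-seq left of the dotted line and Input and IP of m7G-RIP-seq right of it; points are libraries, dashes and bars the mean ± SD. Both ratios over hsa-miR-96-5p are higher in every Red and IP library than in their controls, while hsa-miR-182-5p over hsa-miR-183-5p is lower in Red and overlaps between Input and IP; the vertical axes differ and do not start at 0.

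The size of the enrichment in m7G-RIP-seq depended on the set of replicates. For hsa-miR-182-5p the log2 enrichment was 1.16 ± 0.12 (SE) from replicates 1 to 3 and 1.85 ± 0.12 from replicates 4 and 5, and for hsa-miR-183-5p it was 0.90 ± 0.13 and 1.38 ± 0.12. In a single DESeq2 fit with an interaction term, chosen after the data were seen, these differences were 0.69 ± 0.16 with an adjusted p of 0.000147 and 0.48 ± 0.17 with an adjusted p of 0.0274. Such a difference was called for 26.8% of 488 miRNAs. For hsa-miR-96-5p it was -0.65 ± 0.71 (DESeq2 adjusted p = 0.583) and for hsa-miR-183-3p -0.97 ± 0.50 (adjusted p = 0.139). Both abundant members were enriched in each set of replicates.

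The remaining arms were rare. hsa-miR-182-3p, from the hairpin of the most abundant member, had 4, 11, 22, 10 and 15 raw counts in Input replicates 1 to 5 and 7, 4, 4, 40 and 46 in IP. Its 2 high libraries were IP replicates 4 and 5, and the other IP libraries overlapped with Input. Its log2 enrichment of 1.57 ± 0.75 (SE, n = 5 and 5) had an adjusted p of 0.0608 (DESeq2), and in BoRed-seq it had 2 or 3 raw counts in every library. hsa-miR-96-3p had 0 to 2 raw counts in Input and 0 to 13 in IP, 2 in each Ctrl library and 0 in each Red library, and failed the filter in both assays.

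Of the other mature miRNAs of the reference, 2 in the tables shared bases 2 to 7 with a member. hsa-miR-1271-5p, a known relative of hsa-miR-96-5p and hsa-miR-182-5p with the same UUGGCA, had 72, 122, 138, 11 and 8 raw counts in Input replicates 1 to 5 and 26, 0, 3, 14 and 0 in IP. It was high in Input replicates 1 to 3 alone, and the groups overlapped. Its log2 enrichment of -2.28 ± 1.12 (SE, n = 5 and 5) had an adjusted p of 0.0697 (DESeq2), and in BoRed-seq it had 2 counts in all 4 libraries together. hsa-miR-4452, with the bases of hsa-miR-183-3p, had 0 counts in all libraries. Among the miRNAs with the seed UUGGCA, then, 1 was called enriched in IP, 1 was called depleted and 1 was not called, a share near that of all miRNAs tested (27.3% enriched and 29.9% depleted).

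The members were also set beside miRNAs with as many guanines, as a description with no test. Reference sequences were found for 89.6% of the miRNAs fitted in BoRed-seq and 89.9% of those in m7G-RIP-seq. The 86 miRNAs with 5 G in m7G-RIP-seq had a median log2 enrichment of -0.65, with quartiles of -2.22 and 0.72; hsa-miR-182-5p (1.51) and hsa-miR-183-5p (1.11) were above the upper quartile. The 74 miRNAs with 4 G had a median of -1.26, next to which hsa-miR-96-5p (-1.28) was typical. The 69 with 6 G had a median of -0.34 and an upper quartile of 0.54, below hsa-miR-183-3p (0.88). In BoRed-seq, the 75 miRNAs with 5 G had a median of -0.85 and quartiles of -2.14 and 0.38, so that hsa-miR-183-5p (0.75) was above the upper quartile and hsa-miR-182-5p (-0.12) between the median and that quartile. hsa-miR-96-5p (-1.62) was again close to the median of the 58 miRNAs with 4 G, -1.53. Medians were highest among miRNAs with 9 or more G, a class that none of the members is in. Grouped by the number of GG instead, the 66 miRNAs with 2 GG in BoRed-seq had a median of -0.96 and an upper quartile of 0.87, which is above hsa-miR-183-5p, and the 94 with 2 GG in m7G-RIP-seq had a median of -0.44 and an upper quartile of 0.91, which is above hsa-miR-183-3p but below hsa-miR-182-5p and hsa-miR-183-5p. The 129 miRNAs with 1 GG in BoRed-seq had a median of -0.72 and a lower quartile of -1.94. For the 163 with 1 GG in m7G-RIP-seq these were -0.86 and -2.19. In both assays hsa-miR-96-5p lay between the lower quartile and the median. The position of hsa-miR-183-5p in BoRed-seq and of hsa-miR-183-3p in m7G-RIP-seq relative to the upper quartile thus depended on the grouping. So did the closeness of hsa-miR-96-5p to the median of its class.

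**Figure D4:**
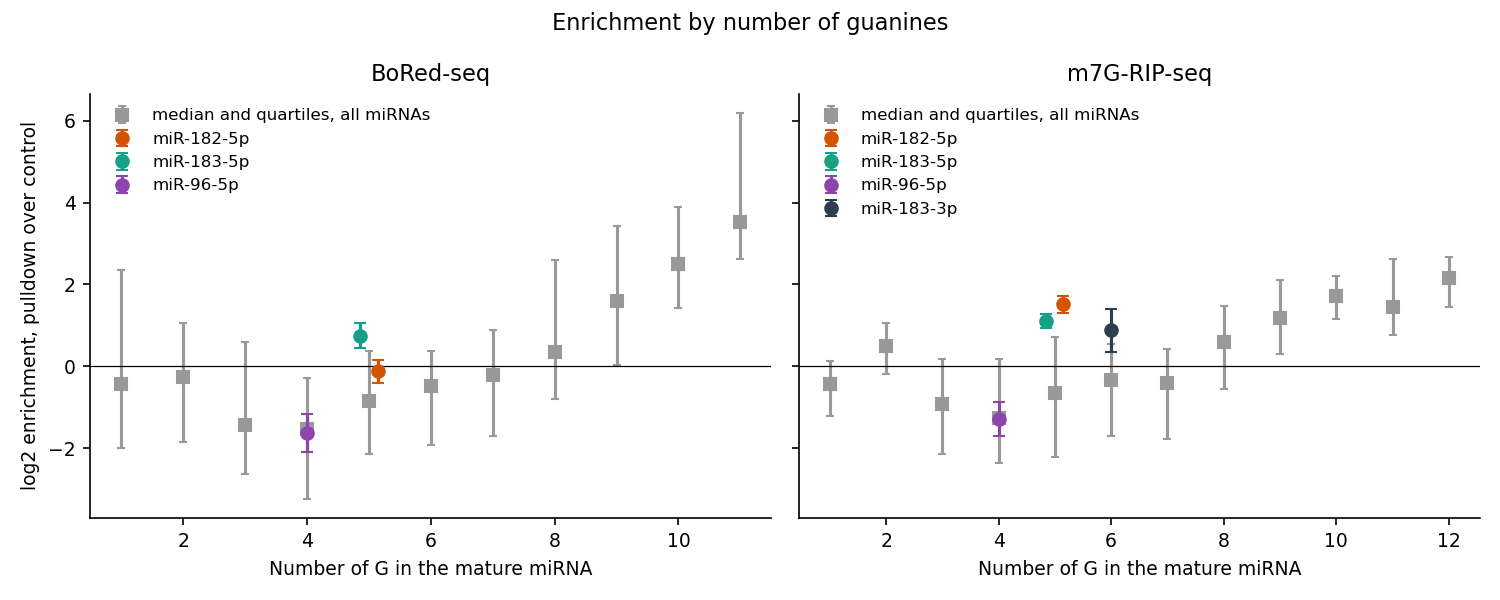
Log2 enrichment (vertical axis) against the number of G in the mature sequence (horizontal axis) in BoRed-seq (left) and m7G-RIP-seq (right); grey squares and bars are the median and quartiles of all miRNAs with that number, shown where at least 10 miRNAs had it, and coloured points are members with their standard error, moved slightly sideways where they share a number. hsa-miR-96-5p lies on the median of its class in both assays, and hsa-miR-183-5p lies above the upper quartile of its class in both.

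Of 2 hairpins of the cluster that were searched, MIR182 and MIR96, 1 holds a run of closely spaced guanine pairs; MIR183 was not searched. Hairpins were read on their own strand for GG written 4 times with 1 to 7 bases of any kind between, a pattern from which RNA can fold into a G-quadruplex, a stack of guanines. MIR182 (chr7:129770383-129770492) holds it at bases 47 to 66 of the hairpin, right after hsa-miR-182-5p, which ends at base 46; the stretch is GGUGAGGUAACAGGAUCCGG, and it is shown because it adjoins the arm with the largest enrichment among the members in IP. MIR96 (chr7:129774692-129774769) holds none. The pattern was found in 450 of 1560 hairpins (28.8%). It lies outside every mature sequence counted here, so the counts do not bear on it, and a match is not evidence of folding.

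The miRNAs whose profile over the libraries was most like that of a member were found by the root mean square distance between log2 normalized counts centred within each assay. This distance includes the shift between control and pulldown libraries. Near miRNAs therefore tend to share the sign of enrichment, and members of unlike sign tend to rank far apart, by the way the distance is made. For hsa-miR-183-5p, over 14 libraries and 426 miRNAs, they were hsa-miR-196b-5p at 0.23, hsa-miR-191-5p at 0.31 and hsa-miR-134-5p at 0.34. For hsa-miR-182-5p they were hsa-miR-191-5p at 0.29, hsa-miR-30a-3p at 0.33 and hsa-miR-194-3p at 0.36. Each of these 5 had a log2 enrichment above 0 in both assays, from 0.07 for hsa-miR-191-5p in BoRed-seq to 2.02 for hsa-miR-194-3p in m7G-RIP-seq. hsa-miR-183-5p was in place 5 of 425 for hsa-miR-182-5p, at a distance of 0.39, whereas hsa-miR-96-5p was in place 223 at 1.42.

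For hsa-miR-96-5p the nearest were hsa-miR-339-5p at 0.56, hsa-miR-23b-3p at 0.58 and hsa-miR-107 at 0.58, all with log2 enrichments below 0 in both assays, a shared sign that the distance favours. Its cluster neighbours were in places 257 (hsa-miR-182-5p) and 264 (hsa-miR-183-5p) of 425. For hsa-miR-183-3p, over the 10 m7G-RIP-seq libraries and 670 miRNAs, the nearest were hsa-miR-16-5p at 0.38, hsa-miR-155-5p at 0.38 and hsa-miR-365a-5p at 0.41, with hsa-miR-183-5p of the same hairpin in place 119 of 669. With Pearson correlation in place of distance, 0 of the 3 nearest stayed the same for hsa-miR-183-5p and for hsa-miR-96-5p.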

How the data were processed

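Mature miRNAs of A549 cells were measured in 14 small RNA libraries. The deposited values were raw counts per mature miRNA, 1 table per assay: the authors trimmed adaptors with Trimmomatic, aligned reads to GRCh38 (hg38) end to end with at most 1 mismatch and at most 10 loci, and counted them with featureCounts over miRBase 22. The methods of the study name STAR as the aligner, and the submitters' processing notes name Bowtie2. Reads that fit several loci could be shared between similar miRNAs; each member has 1 locus in the reference. Both tables held 2588 miRNAs, and 0 columns matched no sample. No replicates were pooled.

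Groups and replicate numbers came from the sample labels. A miRNA needed 10 counts in 2 or more (BoRed-seq) or 5 or more (m7G-RIP-seq) libraries. Fits were made with DESeq2 1.42.0 in R 4.3.3 (Wald test, median-of-ratios size factors, log2 values not shrunken), each assay alone over the whole table, with Benjamini-Hochberg adjustment and calls at an adjusted p under 0.05. In BoRed-seq, independent filtering by DESeq2 left 53 of 453 miRNAs without an adjusted p. Such scaling takes the typical miRNA as equal between groups, so enrichments are relative to it. Ratios inside libraries, with 0.5 added to each count, were compared with two-sided exact permutation tests over libraries, in Python 3.11.15 with SciPy 1.17.1.

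Same-numbered Input and IP libraries deviated together from their group means (correlations 0.146 to 0.387 over miRNAs, all 5 above 0.1), so numbers were taken as pairs there, from the labels' numbers and this check. The check does not tell pairs from the sets of replicates 1 to 3 and 4 and 5: Input 5 with IP 4 gave 0.359 and Input 4 with IP 4 gave 0.310. Blocked values stand beside results whose call they change. Every replicate pair differed beyond sampling noise (chi-square divided by its degrees of freedom was 10.4 or more).

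The named miRNAs are the 4 members, the remaining arms of their hairpins, other miRNAs with bases 2 to 7 of a member, the 3 most alike in profile per member, hsa-miR-21-5p and the marker lists. Members and lists were chosen with earlier results of these data known. Alternatives were edgeR 4.0.16 (quasi-likelihood, TMM), other size factors, filters, thinned Ctrl counts, replicate block, subsets and leaving out libraries. Tested on simulated data in which 200 miRNAs differed by 2 on the log2 scale, DESeq2 recovered 58.5% in BoRed-seq (453 miRNAs) and 78.5% in m7G-RIP-seq (670 miRNAs). False calls numbered 5 and 10. As many miRNAs were raised as lowered, so the simulation does not show how the scaling handles unbalanced changes. Intervals are 95% Wilson intervals and cover counting error only.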

Additional observations from a re-analysis of the deposited data

Results flagged for a closer look

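Differences between sets of libraries were picked out for 4 results. The log2 enrichment of hsa-miR-182-5p was higher in m7G-RIP-seq than in BoRed-seq by 1.64 (z test on DESeq2 values, adjusted p = 2.82e-05). Such a difference was called for 38.0% of 384 miRNAs. That of hsa-miR-182-5p was not called with library totals as size factors in both assays. The change in the ratio of hsa-miR-182-5p to hsa-miR-183-5p was higher in m7G-RIP-seq than in BoRed-seq by 1.22 on the log2 scale. This difference was not tested. Every same-numbered pair of libraries moved down in BoRed-seq (2 of 2) and up in m7G-RIP-seq (5 of 5). Neither change was called: the exact permutation p was 0.333 in BoRed-seq, the smallest possible there. In m7G-RIP-seq the groups overlapped and it was 0.151. Within m7G-RIP-seq, replicates 4 and 5 gave higher log2 enrichments than replicates 1 to 3, by 0.69 for hsa-miR-182-5p and by 0.48 for hsa-miR-183-5p (DESeq2 interaction, adjusted p = 0.000147 and 0.0274). These sets of replicates were chosen after the data were seen, and such a difference was called for 26.8% of 488 miRNAs. No single library stood far from the rest of its group of 5 by Dixon's test at the 95% level in 16 sets of levels and ratios.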

How the results depend on the processing

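Alternatives bore mostly on BoRed-seq. There, hsa-miR-183-5p (log2 enrichment 0.75) lost its call with library totals without hsa-miR-21-5p (0.048), with no count filter (0.27) and with 10 counts required in every library (0.54), and was 0.44 to 1.09 with 1 library left out. hsa-miR-96-5p (-1.62) lost it with library totals (-0.44) and ranged from -2.41 to -1.04 with 1 library left out. hsa-miR-182-5p (-0.12) became 1.02 with library totals and 0.21 with Ctrl thinned to the Red depth, and ranged from -0.44 to 0.22. Thinning moved the median of the miRNAs fitted by 1.09. In m7G-RIP-seq, hsa-miR-182-5p (1.41 to 1.60) and hsa-miR-183-5p (1.02 to 1.17, libraries left out) kept direction and call under every alternative run; hsa-miR-96-5p (-1.60 to -1.04) lost its call in replicates 1 to 3 alone (-1.002), and hsa-miR-183-3p (0.61 to 1.36) gained one there (1.49) and with the replicate block (1.10), which changed no other call on the members' enrichments. In BoRed-seq the block gave 0.74, -1.70 and -0.14 for hsa-miR-183-5p, hsa-miR-96-5p and hsa-miR-182-5p, with a same-number correlation of 0.110. With 2 libraries per group the deviations from the mean mirror each other. This correlation is therefore a single value and cannot show pairing. Differences between assays with library totals were -0.43 (hsa-miR-183-5p), -0.54 (hsa-miR-96-5p) and 0.82 (hsa-miR-182-5p), and with thinned Ctrl -0.020 and -0.0033 for the first pair; hsa-miR-96-5p gave -0.038 in replicates 4 and 5. With 1 library left out they were 0.020 to 0.67, -0.24 to 1.13 and 1.30 to 1.95. edgeR gives no standard errors, so this comparison was not run with it. The change in hsa-miR-183-5p over hsa-miR-183-3p, near 0, was -0.56 in replicates 1 to 3 and -0.44 to 0.35 with 1 library left out; the other ratios kept their direction under every alternative run. The cause of these changes was not tested. Over the whole table, BoRed-seq had 129 miRNAs enriched and 109 depleted; depleted counts were 46 with library totals, 167 without hsa-miR-21-5p, 167 with edgeR, 63 with thinned Ctrl, 62 without Ctrl replicate 2 and 71 with 10 counts everywhere, where enriched were also 71. Library totals and totals without hsa-miR-21-5p moved the median log2 by 1.08 and -0.77 in BoRed-seq and 0.36 and -0.36 in m7G-RIP-seq; enriched miRNAs were 79.2% and 37.7% of BoRed-seq calls (54.2% otherwise, 43.4% with edgeR, 63.6% with thinned Ctrl) and 58.6% and 36.6% of m7G-RIP-seq calls (47.8% otherwise). m7G-RIP-seq had 200 depleted, 116 with 10 counts everywhere. Assay differences were called for 146 miRNAs, 80 with 10 counts everywhere and 77 to 156 with 1 library left out. The small Red libraries (242085 and 277498 counts) limit BoRed-seq.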
